A study of Danio rerio with 6 samples.

Results

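Genes that buffer reactive oxygen species and keep protein thiols reduced were followed in cells sorted from zebrafish (*Danio rerio*) gastrulae. The genes were chosen by symbol. They were the peroxiredoxins (*prdx*), glutathione peroxidases (*gpx*), glutathione S-transferases (*gst*), thioredoxins and their partners (*txn*), glutaredoxins (*glrx*), selenoproteins (*selen*), selenophosphate synthetases (*sephs*) and superoxide dismutases (*sod*), each taken by the start of its symbol, and 12 single genes of glutathione synthesis and the Nrf2 pathway. The rule found 89 genes, of which 23 were listed at 0 in every library. The other 66, out of 14132 genes not listed at 0 throughout, are the members described here. Of these, 34 were among the 3905 genes with a mean level of at least 2 and were tested, and 32 lay below that level. Symbols are written in lower case, whatever their case in the annotation table.

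Cells handle peroxides through linked thiol chains. Electrons from NADPH pass through thioredoxin or glutathione to the peroxiredoxins and glutathione peroxidases that reduce hydrogen peroxide and lipid peroxides. Several of these enzymes and the thioredoxin reductases carry selenocysteine, an amino acid built from selenophosphate and inserted at a UGA codon. Nrf2 is the transcription factor that switches on many genes of glutathione synthesis and detoxification, and Keap1 is the adaptor that sends it for degradation.

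The 6 libraries came from early embryonic cells of the AB strain, with 2 libraries in each of 3 groups. ‘Mosaic’ cells were GFP+ cells of embryos injected with a heat-shock-driven hsp70l:GFP-T2A-β-catCA plasmid, so that scattered cells made GFP together with β-catCA, an N-terminally truncated, constitutively active mouse β-catenin. ‘Ubiquitous’ cells were GFP+ cells of the transgenic line Tg(hsp70l:GFP-T2A-β-catCA), in which the same promoter drives the same protein throughout the embryo. ‘Uninjected’ cells came from embryos that received no plasmid. The heat shock was 37 °C for 1 h from 4.3 hpf (hours post fertilization), and 40 embryos were used per group. The stage of the sorted cells is given as 8.3 hpf in the methods description and as 9 hpf in the sample labels. Whether ‘Uninjected’ embryos were heat-shocked was not stated, and none of the groups was injected without β-catCA. Injection, the share of cells that carry β-catCA and the construct's route of entry therefore cannot be told apart in the comparisons with ‘Mosaic’. Libraries are numbered by the lot in their titles. What a lot is was not stated, so the spread between the 2 libraries of a group may be only technical. The limma p-values pool that spread over the 3 groups and draw it toward that of genes of similar level. They thus do not measure each gene's own spread alone. In bulk libraries, fewer cells of a type and less RNA per cell cannot be told apart.

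Levels are the deposited rlog values, regularized logarithms on the log2 scale. A difference of 1 can stand for more than a 2-fold change, since the transformation pulls values toward the gene's mean, low ones most. The molecule counts behind them were inferred by inverting the transformation, and CPM, the counts scaled to a library total of 1000000, are given from these. CEL-Seq2 counts molecules by their 3′ ends, so CPM do not grow with transcript length. Library totals ranged 14.2-fold, from 34540 counts in ‘Ubiquitous’ lot 2 and 58352 in ‘Uninjected’ lot 1 to between 217242 and 489311 in the other 4. A count of 0 allows up to 3 counts, which is 86.9 CPM in ‘Ubiquitous’ lot 2 and 6.13 CPM in ‘Uninjected’ lot 2. All 13 gastrula markers examined were detected, with summed levels of 3411 to 4538 CPM for ‘Mosaic’, 5067 to 6508 for ‘Ubiquitous’, and 5406 to 5570 for ‘Uninjected’. Of the enveloping layer (outer epithelium) markers, 8 of 10 were detected, at 1890 to 2564 CPM for ‘Mosaic’, 1013 to 1435 for ‘Ubiquitous’, and 1628 to 3282 for ‘Uninjected’. Among the 5 tested, 4 were higher and 1 lower in ‘Mosaic’ than in ‘Ubiquitous’, and 3 were higher and 2 lower than in ‘Uninjected’. All 5 were lower in ‘Ubiquitous’ than in ‘Uninjected’. The call was *krt8*, higher in ‘Mosaic’ than in ‘Ubiquitous’ (difference 1.18, limma, adjusted p = 0.0416). Of the yolk syncytial layer markers, 8 of 10 were detected, at 1853 to 2596 CPM over all 6 libraries. Germ cell markers were all detected, at 237 to 331 CPM for ‘Mosaic’, 367 to 695 for ‘Ubiquitous’, and 548 to 582 for ‘Uninjected’. Hatching gland and prechordal plate markers, 5 of 7 detected, summed to 62.4 to 92.1 CPM for ‘Mosaic’, 52.1 to 86.9 for ‘Ubiquitous’, and 360 to 460 for ‘Uninjected’. Some detected markers had a count of 0 in both libraries of a group. These were *ved*, *anxa1c*, *mxtx2*, *hnf4a*, *ddx4*, *dazl*, *piwil1*, *he1.1* and *he1.2* in ‘Mosaic’, *ved*, *anxa1c*, *mxtx2*, *apoa1b*, *apoa2*, *apobb.1* and *mttp* in ‘Ubiquitous’, and *he1.2* in ‘Uninjected’. The forebrain gene *otx2a* was lower than in ‘Uninjected’ in both ‘Mosaic’ (-1.93, limma, adjusted p = 0.000287) and ‘Ubiquitous’ (-1.57, adjusted p = 0.00144), as was the hatching gland protease *ctslb* (-1.97, adjusted p = 0.000376, and -1.89, adjusted p = 0.000560). The *ctslb* counts were 2 and 2 for ‘Mosaic’, 0 and 1 for ‘Ubiquitous’, and 13 and 87 for ‘Uninjected’.

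The members together took 0.342% to 0.478% of the counts of a library, with the lowest share in ‘Ubiquitous’ lot 2 and the highest in ‘Uninjected’ lot 2. Of their 6029 counts, 45.0% belonged to 3 genes, *selenoh* (1021 counts), *sephs1* (930) and *txn* (762). Selenoproteins held 32.1% of the member counts, the thioredoxin group 25.1%, the selenophosphate synthetases 16.9%, the glutathione S-transferases 7.94%, the glutaredoxins 6.30% and the peroxiredoxins 5.11%. The superoxide dismutases held 0.199%.

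Of the 34 members tested, 1 passed the threshold of an adjusted p under 0.1 between ‘Mosaic’ and ‘Uninjected’, where 1.38% of all genes tested did. It was *sephs1*, which fell, as did 0.845% of all genes. Between ‘Mosaic’ and ‘Ubiquitous’ it was again *sephs1* alone, lower in ‘Mosaic’, where 1.33% of all genes passed and 0.819% passed as lower. None passed between ‘Ubiquitous’ and ‘Uninjected’, where 0.487% of all genes did. There 3 of the 34 members had an unadjusted p under 0.05 by limma, beside 6.76% of all genes. Voom on the inferred counts also called 0 members, with 4 of 34 under 0.05 before adjustment beside 286 of 3905 genes. The comparisons share groups, so the call of *sephs1* in both comparisons with ‘Mosaic’ rests on the same ‘Mosaic’ libraries. The authors had already listed *sephs1* as downregulated in ‘Mosaic’ cells from these same libraries. Its call here is therefore not independent of that report.

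**Figure D1:**
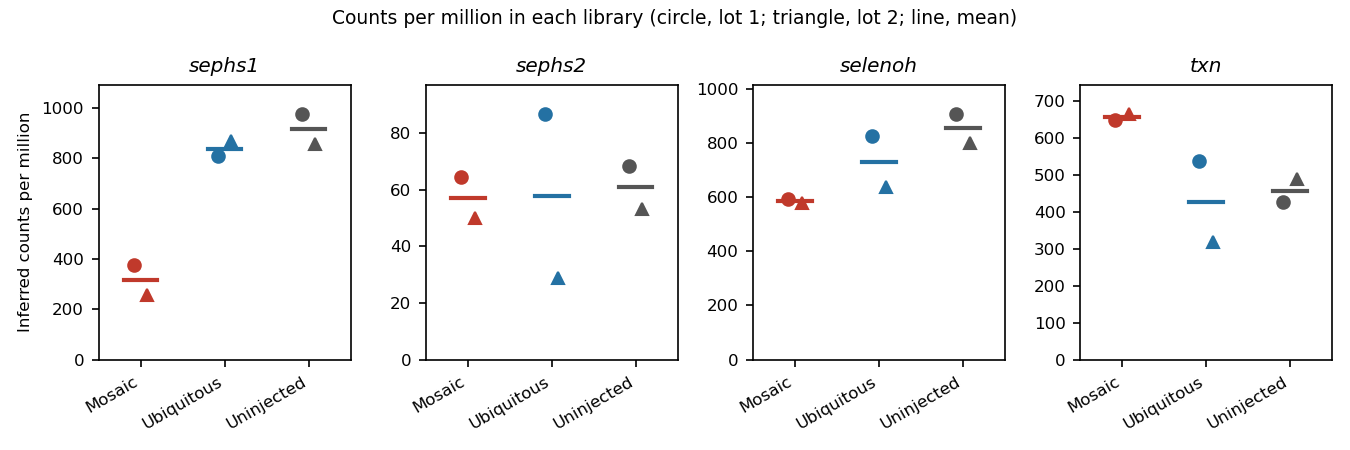
Inferred CPM (vertical axes, starting at 0, 1 scale per gene) of *sephs1*, *sephs2*, *selenoh* and *txn* in the ‘Mosaic’, ‘Ubiquitous’ and ‘Uninjected’ libraries. Circles are lot 1, triangles are lot 2 and lines are group means. For *sephs1* both ‘Mosaic’ points, at 258 and 377 CPM, lie below the 4 other points, which start at 810.

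*sephs1* (ENSDARG00000058292) encodes selenophosphate synthetase 1, a relative of the selenocysteine pathway enzyme that in mammals and flies does not itself make selenophosphate from selenide and is needed to keep peroxide levels in check. Its rlog values were 6.06 and 5.67 for ‘Mosaic’, 6.90 and 6.99 for ‘Ubiquitous’, and 7.19 and 6.91 for ‘Uninjected’. Its counts were 82 and 62 for ‘Mosaic’, 280 and 30 for ‘Ubiquitous’, and 57 and 419 for ‘Uninjected’. Both ‘Mosaic’ libraries lay below all 4 others, while the ‘Ubiquitous’ and ‘Uninjected’ values overlapped. The difference was -1.18 (SE 0.23, 95% interval -1.67 to -0.69, adjusted p = 0.0123) for ‘Mosaic’ minus ‘Uninjected’ and -1.08 (SE 0.23, 95% interval -1.57 to -0.59, adjusted p = 0.0377) for ‘Mosaic’ minus ‘Ubiquitous’, by limma with Benjamini-Hochberg adjustment. For ‘Ubiquitous’ minus ‘Uninjected’ it was -0.10, with an interval of -0.59 to 0.39 (adjusted p = 0.968). On the shrunken rlog scale, that interval leaves out a difference of 1 in either direction.

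On the linear scale, *sephs1* stood at 318 ± 84.4 CPM for ‘Mosaic’, 839 ± 41.3 CPM for ‘Ubiquitous’, and 917 ± 85.2 CPM for ‘Uninjected’ (SD, n = 2 each). The ‘Ubiquitous’ mean was 2.64 times and the ‘Uninjected’ mean 2.88 times that of ‘Mosaic’. The gene took 9.36% and 6.91% of the member counts in the ‘Mosaic’ libraries, and between 17.9% and 25.4% in the 4 others. With *sephs1* left out, the members summed to 3655 and 3476 CPM for ‘Mosaic’, 3675 and 2548 for ‘Ubiquitous’, and 3256 and 3928 for ‘Uninjected’, and these ranges overlapped. Among all 3905 genes its difference was the 21st largest fall between ‘Mosaic’ and ‘Uninjected’ and the 18th between ‘Mosaic’ and ‘Ubiquitous’.

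The *sephs1* calls depended on single libraries and on the level filter. Between ‘Mosaic’ and ‘Uninjected’ the call was lost without ‘Mosaic’ lot 2 (-0.98, adjusted p = 0.354) and without ‘Uninjected’ lot 1 (-1.04, adjusted p = 0.130). Between ‘Mosaic’ and ‘Ubiquitous’ it was lost without ‘Mosaic’ lot 1 (-1.28, adjusted p = 0.198), without ‘Mosaic’ lot 2 (-0.88, adjusted p = 0.369) and without ‘Ubiquitous’ lot 2 (-1.04, adjusted p = 0.189). With every gene above 0 tested, the adjusted p was 0.276 against ‘Uninjected’ and 0.428 against ‘Ubiquitous’. With both shallow libraries removed, the differences were -1.04 in each comparison. That fit leaves ‘Ubiquitous’ and ‘Uninjected’ a single library each. Its SE for ‘Mosaic’ minus ‘Ubiquitous’ was nearly the same for *glrx5* (0.259), *gpx1a* (0.260) and *sephs1* (0.264). Their SDs in ‘Mosaic’ were 0.614, 0.00230 and 0.278. The p-values of that fit thus do not reflect the spread of *sephs1* itself and are not given. Of the 10 gastrula markers tested, 7 were lower and 3 higher in ‘Mosaic’ than in ‘Uninjected’ (-1.93 to 0.38), and 7 were lower and 3 higher than in ‘Ubiquitous’ (-1.50 to 0.69). Both germ cell markers tested had negative differences in both comparisons. Besides *otx2a*, *ctslb* and *krt8*, given above, *tbxta*, a mesoderm regulator, was also lower in ‘Mosaic’ than in ‘Uninjected’ (-1.38, adjusted p = 0.0205) and ‘Ubiquitous’ (-1.50, adjusted p = 0.0250), *tbx16* was lower than in ‘Ubiquitous’ (-1.13, adjusted p = 0.0340), and the germ cell gene *dnd1* was lower than in ‘Uninjected’ (-1.02, adjusted p = 0.0113). The *dnd1* call rests on low counts, 2 and 0 for ‘Mosaic’ against 5 and 27 for ‘Uninjected’. The part of cell composition in the *sephs1* difference was not tested.

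*sephs2* (ENSDARG00000017659) encodes the paralog that makes selenophosphate and is itself a selenoprotein. Its counts were 14 and 12 for ‘Mosaic’, 30 and 1 for ‘Ubiquitous’, and 4 and 26 for ‘Uninjected’, with rlog values between 3.02 and 3.50. The groups overlapped in all comparisons, and the difference was 0.00 (interval -0.50 to 0.49) for ‘Mosaic’ minus ‘Uninjected’ and -0.05 (interval -0.54 to 0.45) for ‘Mosaic’ minus ‘Ubiquitous’, with a sign that turned when single libraries were left out. Per *sephs2* count there were 5.86 and 5.17 *sephs1* counts in the ‘Mosaic’ libraries, 9.33 and 30 in ‘Ubiquitous’, and 14.25 and 16.1 in ‘Uninjected’. The ‘Mosaic’ ratios were below the other 4, of which the 30 rests on 1 *sephs2* count.

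**Figure D2:**
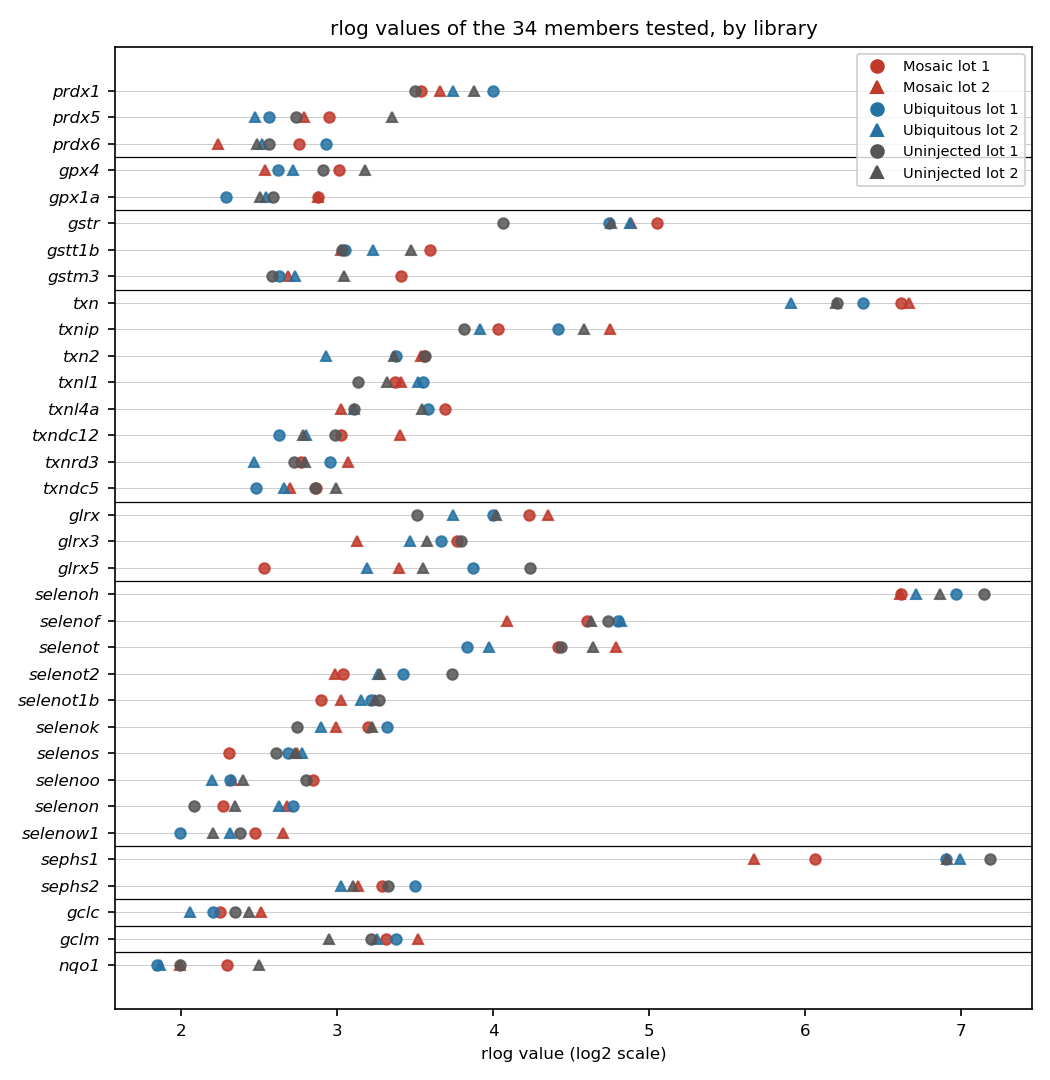
rlog values (horizontal axis, log2 scale) of the 34 members tested, 1 line per gene, grouped by family. Color gives the group and shape the lot. Most genes lie between 2 and 4, *selenoh*, *txn* and *sephs1* stand highest, and only the *sephs1* line shows both ‘Mosaic’ points well to the left of the rest.

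Selenoproteins were the most abundant family, with 15 members above 0 and 10 tested. Their summed level was 1195 and 1197 CPM for ‘Mosaic’, 1461 and 1216 for ‘Ubiquitous’, and 1577 and 1533 for ‘Uninjected’. None passed the threshold in any comparison. Between ‘Mosaic’ and ‘Uninjected’ 4 were higher and 6 lower (median difference -0.08), between ‘Ubiquitous’ and ‘Uninjected’ also 4 and 6 (median -0.10), and between ‘Mosaic’ and ‘Ubiquitous’ 3 and 7 (median -0.20).

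*selenoh* (ENSDARG00000093022) encodes selenoprotein H, a nucleolar protein with a thioredoxin-like fold. Its rlog values were 6.62 and 6.60 for ‘Mosaic’, 6.97 and 6.71 for ‘Ubiquitous’, and 7.14 and 6.86 for ‘Uninjected’. Both ‘Mosaic’ libraries were the lowest of the 6, and the other groups overlapped. The difference was -0.39 (SE 0.23, interval -0.88 to 0.09, adjusted p = 0.544) against ‘Uninjected’ and -0.23 (adjusted p = 0.706) against ‘Ubiquitous’, within the error of these libraries. They were -0.25 without ‘Uninjected’ lot 1, and -0.10 and -0.36 without ‘Ubiquitous’ lot 1 and lot 2.

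*selenot* (ENSDARG00000058354) encodes an endoplasmic reticulum membrane selenoprotein with thioredoxin-like activity, and *selenot2* and *selenot1b* are its paralogs. The rlog values of *selenot* were 4.42 and 4.79 for ‘Mosaic’, 3.83 and 3.98 for ‘Ubiquitous’, and 4.43 and 4.64 for ‘Uninjected’, so that both ‘Ubiquitous’ libraries were the lowest. It differed by -0.63 (SE 0.23, unadjusted p = 0.0140, adjusted p = 0.562 by limma) for ‘Ubiquitous’ minus ‘Uninjected’ and by 0.70 (unadjusted p = 0.00758, adjusted p = 0.194 by limma) for ‘Mosaic’ minus ‘Ubiquitous’, neither past the threshold. *selenot2* (ENSDARG00000023220) had rlog values of 3.04 and 2.98 for ‘Mosaic’, 3.42 and 3.26 for ‘Ubiquitous’, and 3.73 and 3.27 for ‘Uninjected’. Here the ‘Mosaic’ libraries were the lowest, with a difference of -0.49 against ‘Uninjected’ (unadjusted p = 0.0484, adjusted p = 0.437 by limma) that was -0.26 without ‘Uninjected’ lot 1. *selenot1b* ranged from 2.89 to 3.26, also with both ‘Mosaic’ values below the others (-0.29, adjusted p = 0.666). How reads were shared among these related genes was not given in the sources used here, so their separate levels are uncertain.

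*selenon* (ENSDARG00000033616) encodes an endoplasmic reticulum selenoprotein known for its role in calcium handling and in congenital muscle disease. Its counts were 5 and 12 for ‘Mosaic’, 19 and 2 for ‘Ubiquitous’, and 0 and 15 for ‘Uninjected’. The ‘Ubiquitous’ rlog values of 2.72 and 2.63 lay above the ‘Uninjected’ values of 2.08 and 2.35, by 0.46 (unadjusted p = 0.0405, adjusted p = 0.700 by limma), and the ‘Mosaic’ values of 2.27 and 2.68 spanned the gap. *selenof*, whose product binds a glycoprotein folding sensor in the endoplasmic reticulum, had rlog values of 4.60 and 4.09 for ‘Mosaic’, 4.80 and 4.82 for ‘Ubiquitous’, and 4.73 and 4.63 for ‘Uninjected’. Both ‘Mosaic’ values were the lowest, with a difference of -0.46 against ‘Ubiquitous’ (adjusted p = 0.411). *selenok* and *selenos*, both of the machinery that clears misfolded proteins from the endoplasmic reticulum, *selenoo*, a mitochondrial protein, and *selenow1*, a small thioredoxin-like protein, had rlog values between 1.99 and 3.32. Among these, *selenow1* lay highest in ‘Mosaic’ (2.48 and 2.65, against 1.99 to 2.38 in the other 4), with a difference of 0.41 against ‘Ubiquitous’ (adjusted p = 0.385).

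Thioredoxin genes were the next family, with 15 members above 0 and 8 tested, and none passed the threshold. Between ‘Mosaic’ and ‘Uninjected’ 7 of the 8 differences were positive (median 0.16), as were 7 of 8 between ‘Mosaic’ and ‘Ubiquitous’ (median 0.22) and 2 of 8 between ‘Ubiquitous’ and ‘Uninjected’ (median -0.05). The 2 comparisons with ‘Mosaic’ share its libraries. Over all genes tested the medians were 0.02, 0.05 and -0.03.

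*txn* (ENSDARG00000031435) encodes cytosolic thioredoxin, the main protein disulfide reductant. Its rlog values were 6.62 and 6.67 for ‘Mosaic’, 6.37 and 5.91 for ‘Ubiquitous’, and 6.20 in both ‘Uninjected’ libraries, or 649 and 666 CPM, 538 and 318 CPM, and 428 and 488 CPM. The ‘Mosaic’ libraries were the highest of the 6. The difference was 0.44 (SE 0.23, unadjusted p = 0.0738, adjusted p = 0.497 by limma) against ‘Uninjected’ and 0.50 (unadjusted p = 0.0447, adjusted p = 0.367 by limma) against ‘Ubiquitous’, short of the threshold. The latter was 0.27 without ‘Ubiquitous’ lot 2, the shallowest library.

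*txndc12* (ENSDARG00000038980), for a thioredoxin-fold protein of the endoplasmic reticulum, had rlog values of 3.02 and 3.40 for ‘Mosaic’, 2.63 and 2.80 for ‘Ubiquitous’, and 2.98 and 2.78 for ‘Uninjected’. The ‘Mosaic’ values were the highest, by 0.50 over ‘Ubiquitous’ (unadjusted p = 0.0381, adjusted p = 0.353 by limma), and by 0.31 without ‘Mosaic’ lot 2. *txnip* (ENSDARG00000036107), for an arrestin-like protein that binds thioredoxin and limits glucose uptake, spread from 3.81 to 4.75 with wide gaps inside every group. Its group means were 4.39 ± 0.51 for ‘Mosaic’, 4.17 ± 0.35 for ‘Ubiquitous’, and 4.20 ± 0.54 for ‘Uninjected’ (SD, n = 2), and the groups overlapped. A further row with the same symbol held 2 counts in all. *txn2*, the mitochondrial thioredoxin, and *txnrd3*, a selenocysteine-containing thioredoxin reductase, both had a count of 0 in ‘Ubiquitous’ lot 2, where 0 allows up to 86.9 CPM. Their differences were 0.08 and 0.16 against ‘Uninjected’. *txnl1*, *txndc5* and *txnl4a* were tested as well, with ‘Mosaic’ minus ‘Uninjected’ differences of 0.16, -0.14 and 0.03. *txnl4a* shares the thioredoxin fold but is a component of the U5 particle of the spliceosome.

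Of the glutaredoxins, *glrx*, *glrx3* and *glrx5* were tested and none passed the threshold. *glrx* (ENSDARG00000028106), for the cytosolic enzyme that removes glutathione from protein thiols, had rlog values of 4.23 and 4.35 for ‘Mosaic’, 4.0 and 3.74 for ‘Ubiquitous’, and 3.51 and 4.02 for ‘Uninjected’. The ‘Mosaic’ libraries were the highest, by 0.53 over ‘Uninjected’ (SE 0.24, unadjusted p = 0.0414, adjusted p = 0.409 by limma), and by 0.28 without ‘Uninjected’ lot 1. *glrx5* (ENSDARG00000043665), for a mitochondrial protein of iron-sulfur cluster assembly that zebrafish need for heme synthesis, went the other way, with rlog values of 2.53 and 3.40 for ‘Mosaic’, 3.87 and 3.19 for ‘Ubiquitous’, and 4.23 and 3.55 for ‘Uninjected’. Its counts were 2 and 15 for ‘Mosaic’, 40 and 1 for ‘Ubiquitous’, and 11 and 41 for ‘Uninjected’, in libraries of unequal depth. On the rlog scale both ‘Mosaic’ values lay below ‘Uninjected’ but not both below ‘Ubiquitous’. The rlog difference of -0.93 against ‘Uninjected’ (SE 0.31, interval -1.58 to -0.28, unadjusted p = 0.00763, adjusted p = 0.247 by limma) missed the threshold. On that scale it was the next largest among the members after *sephs1*. It was -0.49 without ‘Mosaic’ lot 1 and -0.59 without ‘Uninjected’ lot 1. With voom on the inferred counts it was -1.85 (SE 0.67, adjusted p = 0.274 by voom), beside -1.52 (SE 0.29) for *sephs1*. For ‘Mosaic’ minus ‘Ubiquitous’ the *glrx5* difference was -0.57 (limma, adjusted p = 0.448). With only the 4 deepest libraries, which leave a single ‘Ubiquitous’ library, it was -0.91. *glrx3*, also of iron-sulfur metabolism, differed by -0.24 with overlapping groups.

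Peroxiredoxins reduce hydrogen peroxide and organic peroxides. All 6 *prdx* rows were above 0, 3 were tested and none passed the threshold. *prdx1* (ENSDARG00000025350), the cytosolic enzyme, had rlog values of 3.54 and 3.66 for ‘Mosaic’, 4.0 and 3.74 for ‘Ubiquitous’, and 3.50 and 3.88 for ‘Uninjected’. Both ‘Mosaic’ values lay below those of ‘Ubiquitous’ (-0.28, adjusted p = 0.648, or -0.15 without ‘Ubiquitous’ lot 1) and overlapped ‘Uninjected’ (-0.09, adjusted p = 0.907). Another row with this symbol held 13 counts, and reads of the 2 copies may have been split. *prdx5* (ENSDARG00000055064), found in mitochondria and peroxisomes, had counts of 12 and 10 for ‘Mosaic’, 10 and 0 for ‘Ubiquitous’, and 2 and 50 for ‘Uninjected’. Its rlog values in ‘Ubiquitous’, 2.56 and 2.47, were the lowest, with a difference of -0.52 against ‘Uninjected’ (2.73 and 3.35, unadjusted p = 0.0365, adjusted p = 0.700 by limma). This was -0.83 without ‘Uninjected’ lot 1 and -0.22 without lot 2. *prdx6* ranged from 2.24 to 2.93 with all groups overlapping.

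Of the glutathione peroxidases, 5 were above 0 and 2 were tested. *gpx4* (ENSDARG00000076836), which reduces lipid peroxides in membranes, had counts of 13 and 6 for ‘Mosaic’, 11 and 1 for ‘Ubiquitous’, and 3 and 39 for ‘Uninjected’. Its ‘Mosaic’ rlog values, 3.01 and 2.54, spanned much of the range, and the difference was -0.27 (interval -0.74 to 0.21, adjusted p = 0.713) against ‘Uninjected’, or -0.50 to -0.03 with each library left out. *gpx1a* (ENSDARG00000018146), the cytosolic enzyme, had rlog values of 2.88 in both ‘Mosaic’ libraries, 2.28 and 2.54 in ‘Ubiquitous’, and 2.59 and 2.51 in ‘Uninjected’. ‘Mosaic’ was the highest, by 0.46 over ‘Ubiquitous’ (SE 0.20, unadjusted p = 0.0345, adjusted p = 0.341 by limma). On the linear scale this was 59.8 and 58.3 CPM (13 and 14 counts) against 20.3 and 29.0 CPM, which rest on 7 counts and 1 count. The difference was 0.33 without ‘Ubiquitous’ lot 1 and 0.59 without ‘Ubiquitous’ lot 2.

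Of the glutathione S-transferases, which couple glutathione to reactive compounds, 10 were above 0 and 3 were tested. All 3 had positive differences between ‘Mosaic’ and ‘Uninjected’ (0.06 to 0.56) and between ‘Mosaic’ and ‘Ubiquitous’ (0.16 to 0.37), and none passed the threshold. *gstr* (ENSDARG00000042620), of the fish rho class, had rlog values of 5.05 and 4.88 for ‘Mosaic’, 4.74 and 4.88 for ‘Ubiquitous’, and 4.06 and 4.76 for ‘Uninjected’. Its difference of 0.56 against ‘Uninjected’ (SE 0.25, unadjusted p = 0.0392, adjusted p = 0.408 by limma) was 0.21 without ‘Uninjected’ lot 1, in which the gene had 3 counts, and 0.90 without lot 2. *gstt1b* of the theta class and *gstm3* of the mu class spread from 2.58 to 3.60. One more *gstm3* row held 3 counts in all, so its copies may share reads.

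**Figure D3:**
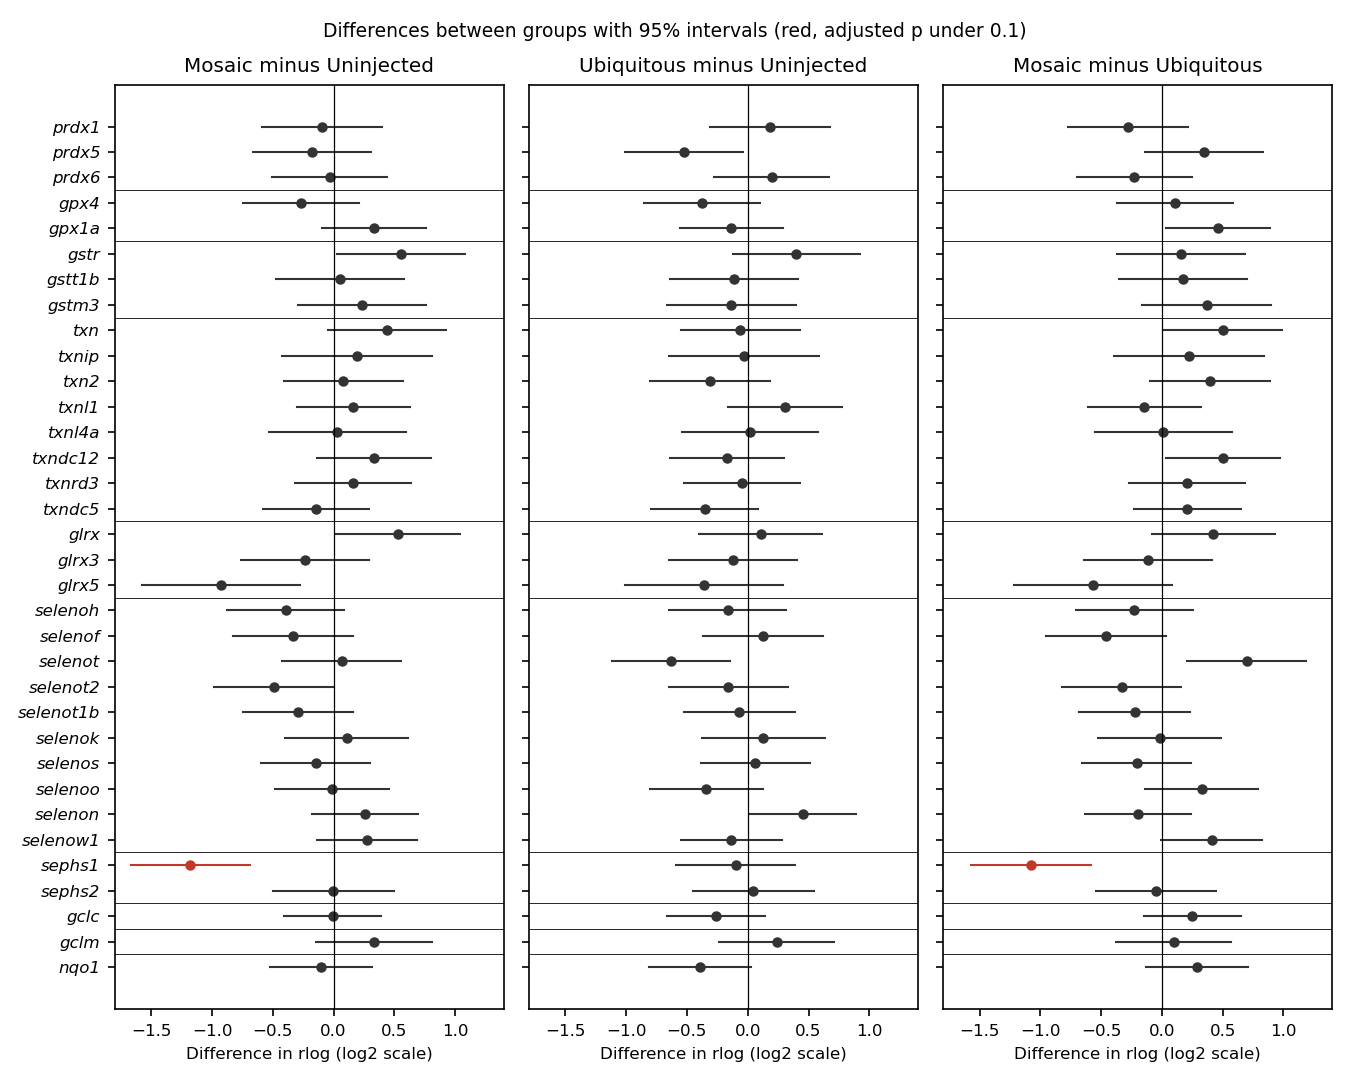
Differences in rlog (horizontal axes, log2 scale) with 95% intervals from limma for the 34 members tested, 1 panel per comparison. A vertical line marks no difference and red points and intervals mark an adjusted p under 0.1. The red points are *sephs1* in the 2 panels with ‘Mosaic’, at -1.18 against ‘Uninjected’ and -1.08 against ‘Ubiquitous’.

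Glutathione itself is made by glutamate-cysteine ligase, whose catalytic and modifier subunits are encoded by *gclc* and *gclm*, and by glutathione synthetase, *gss*. *gclc* (ENSDARG00000013095) had rlog values of 2.25 and 2.51 for ‘Mosaic’, 2.21 and 2.05 for ‘Ubiquitous’, and 2.35 and 2.43 for ‘Uninjected’. *gclm* (ENSDARG00000018953) stood at 3.31 and 3.51, 3.38 and 3.25, and 3.21 and 2.94 in the same order. *gclm* was thus lowest in both ‘Uninjected’ libraries (0.33 for ‘Mosaic’ minus ‘Uninjected’, adjusted p = 0.623), while *gclc* was lowest in ‘Ubiquitous’ (-0.26 for ‘Ubiquitous’ minus ‘Uninjected’, adjusted p = 0.909). *nqo1* (ENSDARG00000010250), a quinone reductase and widely used Nrf2 target, had counts of 9 and 5 for ‘Mosaic’, 5 and 0 for ‘Ubiquitous’, and 1 and 30 for ‘Uninjected’. Its differences were -0.11 (adjusted p = 0.878) against ‘Uninjected’ and 0.29 (adjusted p = 0.553) against ‘Ubiquitous’ for ‘Mosaic’, and -0.39 (adjusted p = 0.761) for ‘Ubiquitous’ minus ‘Uninjected’.

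**Figure D4:**
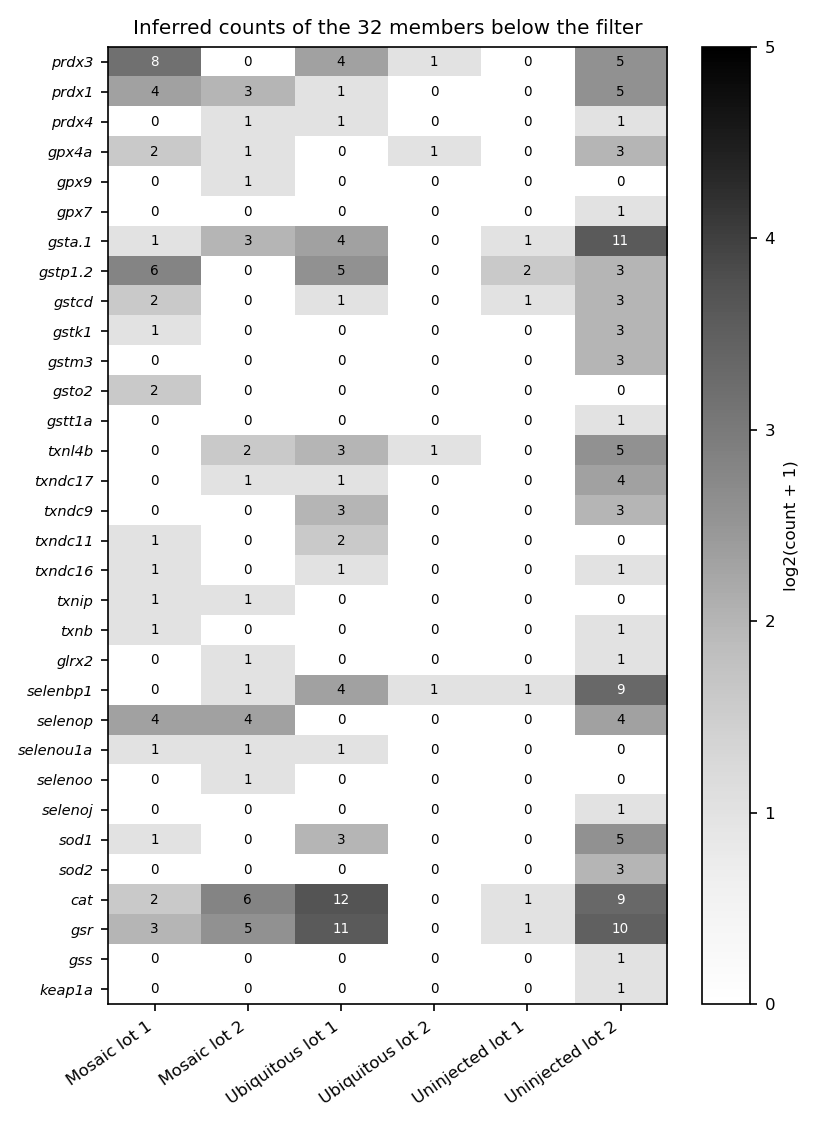
Inferred counts of the 32 members below the level filter (lines) in each library (columns). The number in each cell is the count and the shade is log2(count + 1). Most cells hold 0 to 5, and the 2 shallow libraries, ‘Ubiquitous’ lot 2 and ‘Uninjected’ lot 1, hold almost none.

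The classic enzymes that remove superoxide and hydrogen peroxide were near the limit of detection. *sod1*, the cytosolic copper-zinc superoxide dismutase, had counts of 1 and 0 for ‘Mosaic’, 3 and 0 for ‘Ubiquitous’, and 0 and 5 for ‘Uninjected’. *sod2*, the mitochondrial manganese enzyme, had 3 counts in ‘Uninjected’ lot 2 and 0 elsewhere, and both *sod3* rows were listed at 0. Catalase, *cat*, had 2 and 6 counts for ‘Mosaic’, 12 and 0 for ‘Ubiquitous’, and 1 and 9 for ‘Uninjected’. Glutathione reductase, *gsr*, had 3 and 5, 11 and 0, and 1 and 10 in the same order. *gss* and *keap1a* each had 1 count, in ‘Uninjected’ lot 2, the deepest library. *srxn1*, which restores overoxidized peroxiredoxins, was listed at 0. A difference between groups in any of these was not detectable at this depth.

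Among the 32 members below the filter, no total exceeded 30 counts, 23 had 10 or fewer and 7 had a single count. They include *prdx3* and *prdx4*, for the mitochondrial and the endoplasmic reticulum peroxiredoxin, *selenop*, for the selenium carrier of blood plasma, and *selenbp1*, whose product binds selenium without being a selenoprotein. Of the 34 tested members, 27 had at least 1 count in all 6 libraries. The zeros among the others were 6 in ‘Ubiquitous’ lot 2 and 1 in ‘Uninjected’ lot 1. The symbols *nfe2l2a*, *keap1b*, *hmox1a* and *msra* matched no row. Rows named *nfe2l2*, *keap1* and *hmox1*, which the rule does not take, had 4, 38 and 1 counts in all, so the gene for Nrf2 itself was barely seen.

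Over the 34 tested members the differences went both ways, and on the shrunken rlog scale their medians were small. Between ‘Mosaic’ and ‘Uninjected’ 17 were higher and 17 lower, with a median of 0.01 beside 0.02 over all genes tested, and a median absolute difference of 0.213 beside 0.200. Between ‘Ubiquitous’ and ‘Uninjected’ 12 were higher and 22 lower (median -0.11 beside -0.03), and between ‘Mosaic’ and ‘Ubiquitous’ 20 were higher and 14 lower (median 0.13 beside 0.05). Unadjusted p-values under 0.05 were found for 5, 3 and 5 of the 34 members in these comparisons, where 11.3%, 6.76% and 13.0% of all genes had them. The 2 libraries of one group lay wholly above or below those of the other for 14, 12 and 20 members, and for 43.1%, 33.2% and 46.7% of all genes tested. Between ‘Mosaic’ and ‘Uninjected’ 8 members lay above and 6 below, where 23.1% and 19.9% of all genes did. Between ‘Ubiquitous’ and ‘Uninjected’ 4 lay above and 8 below (13.7% and 19.6% of all genes), and between ‘Mosaic’ and ‘Ubiquitous’ 13 and 7 (28.1% and 18.5% of all genes). The shares among the members were near this background in the comparisons with ‘Uninjected’. Between ‘Mosaic’ and ‘Ubiquitous’ the share apart, 20 of 34, was above the 46.7% of all genes, and this excess was not tested. Voom on the inferred counts, a scale without the rlog shrinkage, gave larger differences for some members of low count. For *prdx5* and *selenon* these were -1.92 and 1.53 between ‘Ubiquitous’ and ‘Uninjected’, beside -0.52 and 0.46 on the rlog scale. For *txn*, of high count, voom gave 0.46 beside 0.50 between ‘Mosaic’ and ‘Ubiquitous’.

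Other genes that feed these pathways were taken from a fixed list, and 22 of them were tested. None passed the threshold in any comparison. Between ‘Mosaic’ and ‘Uninjected’ 14 were higher and 8 lower (median 0.13), with 2 unadjusted p-values under 0.05. Between ‘Ubiquitous’ and ‘Uninjected’ the counts were 10 and 12 (median -0.02, 2 under 0.05), and between ‘Mosaic’ and ‘Ubiquitous’ 14 and 8 (median 0.07, 4 under 0.05). Over all genes tested, 11.3%, 6.76% and 13.0% had an unadjusted p under 0.05, and 2082 were higher and 1823 lower, 1757 higher and 2148 lower, and 2215 higher and 1690 lower in the 3 comparisons.

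For selenocysteine synthesis and insertion, 5 genes were tested. *sepsecs*, which converts the phosphoseryl tRNA intermediate with selenophosphate to selenocysteyl tRNA, had counts of 8 and 5 for ‘Mosaic’, 32 and 0 for ‘Ubiquitous’, and 4 and 31 for ‘Uninjected’. Its difference for ‘Mosaic’ was -0.44 against ‘Uninjected’ (adjusted p = 0.542) and -0.32 against ‘Ubiquitous’ (adjusted p = 0.611) by limma. The row *trnau1ap* and its paralog *trnau1apb*, for proteins that bind the selenocysteine tRNA, differed by 0.06 and 0.17 against ‘Uninjected’. *ybx1*, a general mRNA-binding protein, had 271 and 290 counts for ‘Mosaic’, 299 and 27 for ‘Ubiquitous’, and 44 and 289 for ‘Uninjected’, with a difference of 0.75 against ‘Uninjected’ (unadjusted p = 0.00500, adjusted p = 0.210 by limma).

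In the supply of cysteine and methionine, *ahcy*, which splits S-adenosylhomocysteine, had the lowest difference for ‘Mosaic’ minus ‘Uninjected’ (-0.74, adjusted p = 0.251), and *cbsb*, for cystathionine beta-synthase, had the highest for ‘Ubiquitous’ minus ‘Uninjected’ (0.82, adjusted p = 0.520). *chac1*, which degrades glutathione, differed by 0.25 and *cth*, for cystathionine gamma-lyase, by 0.36 for ‘Mosaic’ minus ‘Uninjected’. For NADPH supply, *idh2* and *nnt*, both mitochondrial, went opposite ways for ‘Mosaic’ minus ‘Ubiquitous’, by 0.56 (adjusted p = 0.271) and -0.55 (adjusted p = 0.320). Of the Keap1 ligase partners, *rbx1* differed by 0.67 in that comparison (adjusted p = 0.224), and the 2 *cul3* rows by -0.14 and 0.17. No gene of the list of reactive oxygen sources, which held the NADPH oxidase subunits, reached the level filter.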

How the data were processed

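Cells of ‘Mosaic’, ‘Ubiquitous’ and ‘Uninjected’ embryos were sorted and sequenced by the authors as CEL-Seq2 libraries, 2 per group. The authors aligned reads to GRCz10 with Bowtie2 (2.3.1), counted them per gene with HTSeq (0.6.1) after removing duplicate molecular identifiers, and called genes with DESeq2. The values the authors deposited are rlog values on the log2 scale for 32266 genes. All 6 columns were mapped to samples.

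Group means were compared with limma (3.58.1, R 4.3.3) in 1 model of the 6 libraries whose prior variance followed the mean. Benjamini-Hochberg adjustment covered the 3905 genes whose rlog averaged 2 or more, with a threshold of 0.1. Counts were inferred in Python (3.11.15, numpy 2.4.6, scipy 1.17.1) as the whole numbers whose transformation returns the deposited values. They did so to within 0.001 for 14119 of 14132 genes (99.9%), including all 66 members. On simulated data, the inversion returned all counts for 99.7% of 11028 genes when given the same parameters that made the data. The estimation of those parameters was not tested. The limma fit was also run on simulated data, but its outcome is not given here and is not used for the calls. Counting limits (3 counts for a 0) cover counting error only. Inferred totals were 34540 to 489311 counts per library.

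Members with an unadjusted p under 0.05 in any comparison, the highest member of each family, and *nfe2l2a*, *keap1a*, *keap1b*, *hmox1a*, *nqo1*, *srxn1*, *gclc*, *gclm*, *gsr*, *gss*, *cat*, the *sod* genes and *msra* are always named, and other tested members where they illustrate a family. Members below the filter named besides these, and the pathway genes named, were chosen after their values were seen. Members and lists were chosen with earlier results of these data known. An Ensembl table paired 26433 identifiers with symbols, and listed genes were matched by symbol or without their paralog letter. No sequences or coordinates were used. Alternatives covered the filter, scaling, variance prior, samples in the fit, lot as a block, threshold, voom on the inferred counts and each library left out. The 4 deepest libraries alone were added after the totals were seen.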

Additional observations from a re-analysis of the deposited data

Results flagged for a closer look

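The *sephs1* level was lower in ‘Mosaic’ than in ‘Ubiquitous’, where injection, the share of β-catCA cells and the route of entry cannot be told apart. Against ‘Uninjected’ the difference was -1.18 in ‘Mosaic’ and -0.10 in ‘Ubiquitous’. The difference between these 2 values, which equals ‘Mosaic’ minus ‘Ubiquitous’ since the control is shared, was -1.08 (limma, adjusted p = 0.0377). Over the alternatives with 2 libraries per group, the limma adjusted p ranged from 0.0178 to 0.428. With each library left out, the difference ranged from -1.28 to -0.88. The call was lost without ‘Mosaic’ lot 1, ‘Mosaic’ lot 2 or ‘Ubiquitous’ lot 2. Both ‘Mosaic’ libraries lay below both ‘Ubiquitous’ libraries.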

How the results depend on the processing

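With every gene above 0 tested, no member passed between ‘Mosaic’ and ‘Uninjected’ (0 called, 5 with an unadjusted p under 0.05) or between ‘Mosaic’ and ‘Ubiquitous’ (0 called, 6 under 0.05), and *sephs1* had adjusted p = 0.276 and 0.428. By limma, its unadjusted p against ‘Uninjected’ was 0.000631, beside 8.80e-05 in the main fit. The number of genes adjusted over was thus not all that changed. All genes called without the filter numbered 6 (‘Mosaic’ minus ‘Uninjected’), 7 (‘Ubiquitous’ minus ‘Uninjected’) and 0 (‘Mosaic’ minus ‘Ubiquitous’). Before adjustment, 795, 468 and 950 genes were under 0.05. The main counts were 54, 19 and 52. At a mean rlog of at least 4 they were 18, 5 and 24, at an adjusted p under 0.05 the last was 33, and with the 4 deepest libraries alone they were 142, 54 and 159, with 2 members (*glrx5* and *sephs1*) lower in ‘Mosaic’ than in ‘Ubiquitous’. For ‘Mosaic’ minus ‘Ubiquitous’, that fit of the 4 deepest libraries gave nearly the same SE to *glrx5* (0.259), *gpx1a* (0.260) and *sephs1* (0.264), whatever their spread. It leaves ‘Ubiquitous’ and ‘Uninjected’ a single library each. Its counts thus do not reflect each gene's own spread, and they are not used as calls here. The cause of the rise in that fit was not tested. Leaving out each library gave 25 to 64, 14 to 25 and 2 to 67 genes, and 0 to 1, 0 to 0 and 0 to 1 members. Such a fit takes the spread of the lone library's group from the others.

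The *sephs1* difference stayed negative in both comparisons with ‘Mosaic’, from -1.52 to -1.04 and from -1.41 to -1.04 over the alternatives that kept all groups, and from -1.37 to -0.98 and -1.28 to -0.88 with each library left out. For ‘Ubiquitous’ minus ‘Uninjected’ it ranged from -0.239 to 0.0399 with each library left out. For ‘Mosaic’ minus ‘Uninjected’, *sephs2* turned to 0.0270 with voom and to 0.11 with the 4 deepest libraries. With each library left out it ranged from -0.12 to 0.11, and from -0.29 to 0.19 for ‘Mosaic’ minus ‘Ubiquitous’. *prdx1* ranged from -0.281 to 0.0945 for ‘Mosaic’ minus ‘Uninjected’ and *gpx4* from -0.13 to 0.35 for ‘Mosaic’ minus ‘Ubiquitous’.

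Deviations of same-numbered libraries from their group means correlated at -0.06, -0.12 and -0.04 over 3905 genes. With 2 libraries of unequal depth per group, these values cannot decide whether lot numbers pair the samples. With lot as a replicate block, 1, 0 and 1 members and 57, 23 and 50 genes passed, with *sephs1* at adjusted p = 0.0120 and 0.0418.

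Depth limits low members most. In ‘Ubiquitous’ lot 2, 14.4% of the genes tested had a count of 0, and in ‘Uninjected’ lot 1 4.97%.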
